A study of Mus musculus with 31 samples.

Results

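The genes described here are the autophagy receptors Sqstm1, Nbr1, Tax1bp1 and Optn, the ATG8 family members Gabarap, Gabarapl1, Gabarapl2, Map1lc3a and Map1lc3b, and the phosphoinositide-binding protein gene Wipi1. These 10 genes were chosen by name from the autophagy pathway, out of 20704 genes listed for ribosome-protected fragments (RPFs) and 24593 listed for total RNA, and all 10 are listed in both. They and the gene lists used further on were chosen with earlier results of these data known. Counts of them set beside all genes are therefore descriptions. RPFs report the ribosomes on a coding sequence, and total RNA was sequenced after rRNA depletion. Both were measured in mouse skin squamous cell carcinoma (SCC) cells that, per the paper, carried oncogenic HrasG12V, lacked Tgfbr2 and expressed an eGFP reporter. Their own Eif2s1 alleles, which encode eIF2α, had been removed with CRISPR-Cas9. The cells carried instead a myc-tagged Eif2s1 cDNA driven by the PGK promoter. In S51 cells this cDNA encodes wild-type eIF2α, and in S51A cells a form that cannot be phosphorylated at that residue, so that the integrated stress response (ISR) cannot start through it. Cells received vehicle (DMSO) or 100 nM of the proteasome inhibitor bortezomib for 4.5 h per the labels, the methods giving a slightly shorter time. RPF libraries numbered 3 for S51 vehicle and 4 for each of the other groups (S51 bortezomib, S51A vehicle and S51A bortezomib), and total RNA libraries numbered 4 for each of the 4 groups. The lines were grown from single-cell clones, so a difference between S51 and S51A and a difference between clones cannot be told apart.

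Selective autophagy links cargo to a growing membrane. Receptors such as p62 (the product of Sqstm1), NBR1, TAX1BP1 and optineurin bind ubiquitin on the cargo and, on the other side, ATG8 proteins that are conjugated to lipid on the membrane. WIPI proteins bind the phosphoinositide made at the site where that membrane forms. p62 also gathers ubiquitinated proteins into bodies, and blocking the proteasome is a standard way to load cells with such proteins.

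RPF libraries held 1038826 to 4902237 counts and total RNA libraries 18758668 to 22994713, so RPF values carry the larger counting error. Among RPF libraries, replicate 2 of S51 vehicle was the least like its group, with a mean correlation of 0.949 (log2 CPM across genes) where the other libraries lay between 0.967 and 0.988. Several values that turn on it are given with and without it. Eif2s1, the replaced gene, was read at group means of 287 to 310 CPM (counts relative to the TMM-scaled library total) in total RNA. Both lines carry the transgene, and this RNA level does not tell them apart. In RPF, Eif2s1 gave 162, 81.2 and 171 CPM in S51 vehicle and 213 to 260 CPM in S51A vehicle, without overlap. With bortezomib the RPF libraries overlapped, at 148 to 196 CPM in S51 and 190 to 235 CPM in S51A. The part of this difference in the results was not tested. All 8 keratinocyte and SCC markers passed the filter on low counts in both kinds of library, and their summed level was 25080 to 37160 CPM in RPF. In total RNA that sum was 11580 to 12100 CPM in S51 vehicle and 14030 to 16980 CPM in the libraries of the other groups, and its part in the results was not tested. The 7 fibroblast markers summed to at most 9.99 CPM and the 7 immune markers to at most 17.4 CPM in any RPF library, with Col1a2, Dcn, Cd3e and Lyz2 at 0 counts in all libraries of both kinds. CPM are shares of a library, so fewer cells of a type and less RNA per cell cannot be told apart.

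Sqstm1 rose in both lines under bortezomib, at the level of RNA and of ribosome footprints, and its rise in RNA was larger in S51. In total RNA it was read at 205, 199, 213 and 183 CPM in S51 vehicle and at 783, 886, 836 and 816 CPM in S51 bortezomib. In S51A the vehicle libraries gave 276, 246, 275 and 222 CPM and the bortezomib libraries 701, 712, 674 and 611 CPM. Every bortezomib library lay above every vehicle library, in both lines. The change was 4.15-fold in S51 (log2 2.05 ± 0.061 (SE), adjusted p = 1.02e-18) and 2.65-fold in S51A (log2 1.41 ± 0.060, adjusted p = 1.26e-15). Here and in what follows, a called change had a fold above 1.5 and, in edgeR's quasi-likelihood test, an adjusted p below 0.05.

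Footprints on Sqstm1 moved likewise. RPF libraries gave 394, 529.9 and 383 CPM in S51 vehicle and 1672, 1879, 1640 and 1699 CPM in S51 bortezomib. S51A gave 493, 468, 519.6 and 368 CPM with vehicle and 1214, 1364, 1294 and 1286 CPM with bortezomib. The groups again did not overlap, and the RPF change was 3.96-fold in S51 (log2 1.99 ± 0.12, adjusted p = 5.46e-11) and 2.80-fold in S51A (log2 1.48 ± 0.10, adjusted p = 1.08e-09). Without replicate 2 of S51 vehicle the S51 value was log2 2.15. By size of rise, Sqstm1 stood 46th of 9457 genes tested in RPF in S51 and 70th in S51A.

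Gabarapl1, which encodes an ATG8 protein of the GABARAP subfamily, had the highest fold rise among the members tested in each line and kind of library, although in S51 RPF its value lay within the errors of that of Sqstm1. In total RNA it was read at 21.7, 20.9, 23.7 and 21.7 CPM in S51 vehicle and at 101, 115, 106 and 107 CPM in S51 bortezomib. In S51A the values were 24.5, 21.1, 23.3 and 21.5 CPM with vehicle and 97.0, 109, 90.3 and 96.4 CPM with bortezomib. Treated and untreated libraries were far apart and the treated libraries of the lines overlapped. The RNA change was 4.87-fold in S51 (log2 2.29 ± 0.061, adjusted p = 1.24e-19) and 4.35-fold in S51A (log2 2.12 ± 0.061, adjusted p = 6.51e-19). In RPF it went from 20.2, 19.8 and 20.4 CPM to 77.2, 103, 99.9 and 88.5 CPM in S51, and from 13.1, 16.7, 14.9 and 16.4 CPM to 74.4, 76.0, 76.5 and 64.6 CPM in S51A. These are a 4.56-fold rise (log2 2.19 ± 0.14, adjusted p = 9.01e-11) and a 4.66-fold rise (adjusted p = 2.98e-11), and the S51 value without replicate 2 of S51 vehicle was log2 2.18.

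Sqstm1 lies at chr11:50200152-50210820 and Gabarapl1 at chr6:129533192-129542331 in GRCm38. The stretches just before the annotated starts of these genes, the pair that rose most in both lines, are shown because both moved at the RNA level. They come from RefSeq (GRCm38.p6), the Sqstm1 stretch from chr11:50210821-50210940 on the minus strand and the Gabarapl1 stretch from chr6:129533072-129533191 on the plus strand. Capitals mark GC boxes (GGGCGG, either strand) and, in Gabarapl1, a match to TGACNTCA (N is any base, either strand). That pattern is a loosened form of the cyclic AMP response element, and the matching stretch, TGATGTCA, is not the exact element. The pattern was chosen after the sequence was seen.
Sqstm1: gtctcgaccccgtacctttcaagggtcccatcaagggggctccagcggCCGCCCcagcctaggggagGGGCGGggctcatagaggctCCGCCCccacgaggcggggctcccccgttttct
Gabarapl1: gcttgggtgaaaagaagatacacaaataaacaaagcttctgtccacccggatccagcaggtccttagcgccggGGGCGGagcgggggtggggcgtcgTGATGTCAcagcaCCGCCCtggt
GC boxes are common, standing in 35.7% of 32851 mouse windows of 300 bases (250 before and 50 after a start), and TGACNTCA stood in 8.83%. Neither gene's window held the antioxidant response element core TGACNNNGC (12.4% of windows), the E-box CACGTG (7.15%), the ATF4 site core TGATGNAA (3.97%) or the heat shock element core GAANNTTC (7.86%), all read on both strands. Windows were found for 9 of the 10 genes, Map1lc3a being the exception. TGACNNNGC was met in the windows of Map1lc3b and Tax1bp1 and GAANNTTC in that of Optn. These matches are letters in a window and say nothing of binding. A motif absent from a window of 300 bases may stand elsewhere near the gene.

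**Figure D1:**
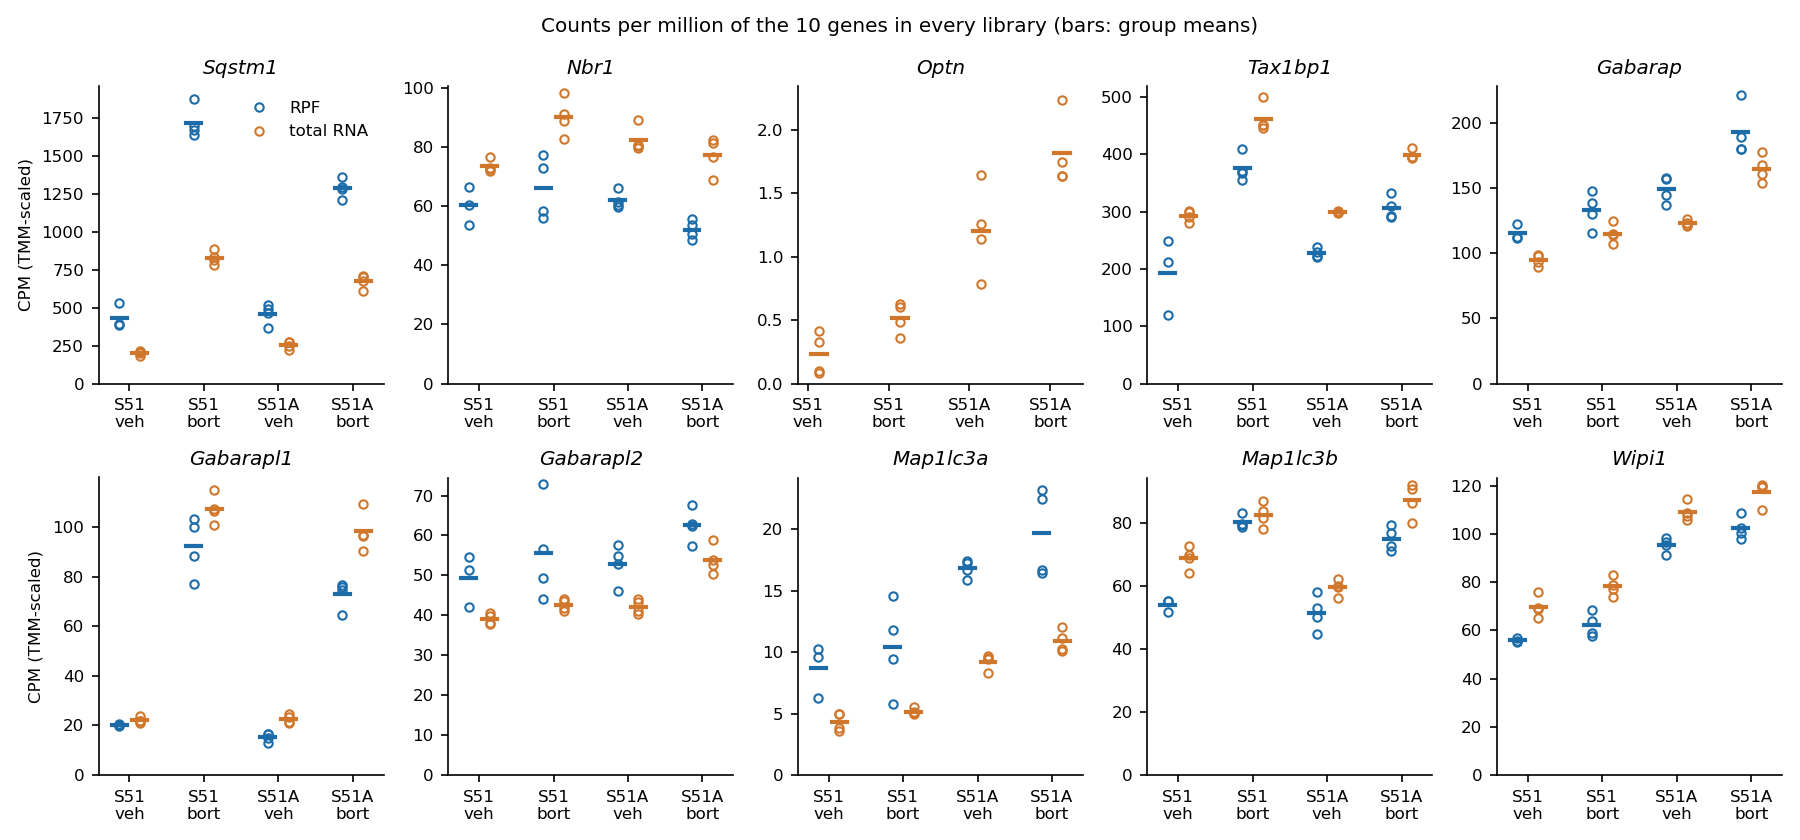
CPM (vertical axis, TMM-scaled, from 0) in every library of the 4 groups, RPF in blue and total RNA in orange, with short bars at group means. Sqstm1, Gabarapl1 and, by less, Tax1bp1 and Map1lc3b stand apart between vehicle and bortezomib in both lines. Map1lc3a, Wipi1 and, by less, Gabarap stand apart between S51 and S51A under each treatment, as does Optn in total RNA. Optn is shown in total RNA alone.

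Tax1bp1, a ubiquitin-binding receptor, rose by less, and was called in S51 alone. Total RNA libraries gave 280.1 to 301 CPM in S51 vehicle and 445, 451, 500.0 and 451 CPM in S51 bortezomib. In S51A they gave 297 to 300.1 CPM with vehicle and 396, 411, 395 and 394 CPM with bortezomib. The groups did not overlap in either line. The RNA change was 1.58-fold in S51 (log2 0.66 ± 0.036, adjusted p = 8.28e-14) and 1.34-fold in S51A (log2 0.42 ± 0.036, adjusted p = 4.31e-10), the latter under the fold needed. In RPF, S51 vehicle gave 212, 119.9 and 249 CPM, the 119.9 CPM being replicate 2, and S51 bortezomib 355, 409, 371 and 367 CPM. That is a 1.92-fold rise (log2 0.94 ± 0.15, adjusted p = 5.64e-05), with log2 values of 0.70 to 1.14 over the alternative settings and left-out libraries, the 0.70 (adjusted p = 1.95e-08) without that replicate. S51A rose from 220 to 239 CPM with vehicle to 290 to 333 CPM with bortezomib, 1.35-fold (adjusted p = 0.0257), under the fold needed.

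Optn, which encodes optineurin, was nearly silent in these cells. It had 0 to 6 counts in each of the 15 RPF libraries, 0 in 4 of them, and was not tested there. In total RNA it had 2 to 9 counts in S51 vehicle libraries, 7 to 13 in S51 bortezomib, 17 to 36 in S51A vehicle and 33 to 41 in S51A bortezomib. The S51 change of 2.23-fold was called (log2 1.16 ± 0.43, adjusted p = 0.0228) although the groups overlapped, and it lost the call without replicate 1 or 4 of S51 vehicle or without replicate 1 or 2 of S51 bortezomib (adjusted p of 0.0539 to 0.0944). In S51A the log2 change was 0.58 ± 0.24 (adjusted p = 0.0389), just under the fold needed.

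Nbr1, the receptor most like p62 in its domains, did not follow Sqstm1. Its total RNA rose 1.22-fold in S51 without reaching the fold needed (log2 0.29 ± 0.055, adjusted p = 5.94e-05), from 72.1 to 76.8 CPM with vehicle to 82.6 to 98.2 CPM with bortezomib. In S51A the log2 change was -0.09 ± 0.055 (adjusted p = 0.151). In RPF the log2 changes were 0.16 ± 0.12 in S51 (adjusted p = 0.346) and -0.26 ± 0.11 in S51A (adjusted p = 0.118).

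Map1lc3b, which encodes LC3B, the ATG8 protein most used as an autophagosome marker, had an adjusted p below 0.05 in all 4 tests of the response, each under the fold needed. RPF libraries gave 55.3, 51.7 and 55.3 CPM in S51 vehicle and 79.3, 83.2, 78.7 and 79.5 CPM in S51 bortezomib. S51A gave 44.9, 58.1, 53.1 and 50.1 CPM with vehicle and 71.2, 72.6, 77.0 and 79.3 CPM with bortezomib. The groups did not overlap in either line, and the RPF rise was 1.48-fold in S51 (adjusted p = 0.000492) and 1.45-fold in S51A (adjusted p = 0.000377). The RNA rise was 1.20-fold in S51 (log2 0.26 ± 0.049, adjusted p = 6.38e-05) and 1.47-fold in S51A (log2 0.55 ± 0.049, adjusted p = 9.3e-10).

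The remaining ATG8 genes changed little. Gabarap rose 1.34-fold in total RNA in S51A (adjusted p = 2.32e-08) and 1.21-fold in S51 (adjusted p = 1.58e-05), both under the fold needed. Gabarapl2 gave 1.28-fold in S51A (adjusted p = 1.26e-06) and 1.09-fold in S51 (adjusted p = 0.0372). RefSeq lists 6 pseudogenes of Gabarapl2 and 8 named for Map1lc3, none of them in either table, so reads of these genes that are shared with them are uncertain. Map1lc3a, at 3.57 to 12.1 CPM in total RNA, gave 1.20-fold in S51 (adjusted p = 0.0579) and 1.18-fold in S51A (adjusted p = 0.0322). Wipi1 gave log2 values of 0.16 ± 0.047 in S51 and 0.11 ± 0.045 in S51A in total RNA.

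In RPF, 3 of the 9 genes tested were called higher in S51 and 2 of 9 in S51A, where 7.38% and 4.19% of all genes tested were called higher. In total RNA, 4 of 10 were called higher in S51 and 2 of 10 in S51A, against 5.7% and 4.54% of all genes. The genes having been chosen with earlier results known, these counts are descriptions. The median log2 change of the 9 genes in RPF was 0.23 in S51 and 0.37 in S51A, beside medians of all genes near 0. Without the total RNA library of S51A bortezomib replicate 1, the S51A count in total RNA was 4, Map1lc3b and Optn being added. Sqstm1 and Gabarapl1 were called in both lines and both kinds of library. Scaled by library size and not by TMM, the median of all genes in total RNA shifted to -0.16 in S51 and -0.13 in S51A, and Tax1bp1 in S51 fell under the fold (log2 0.50).

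**Figure D2:**
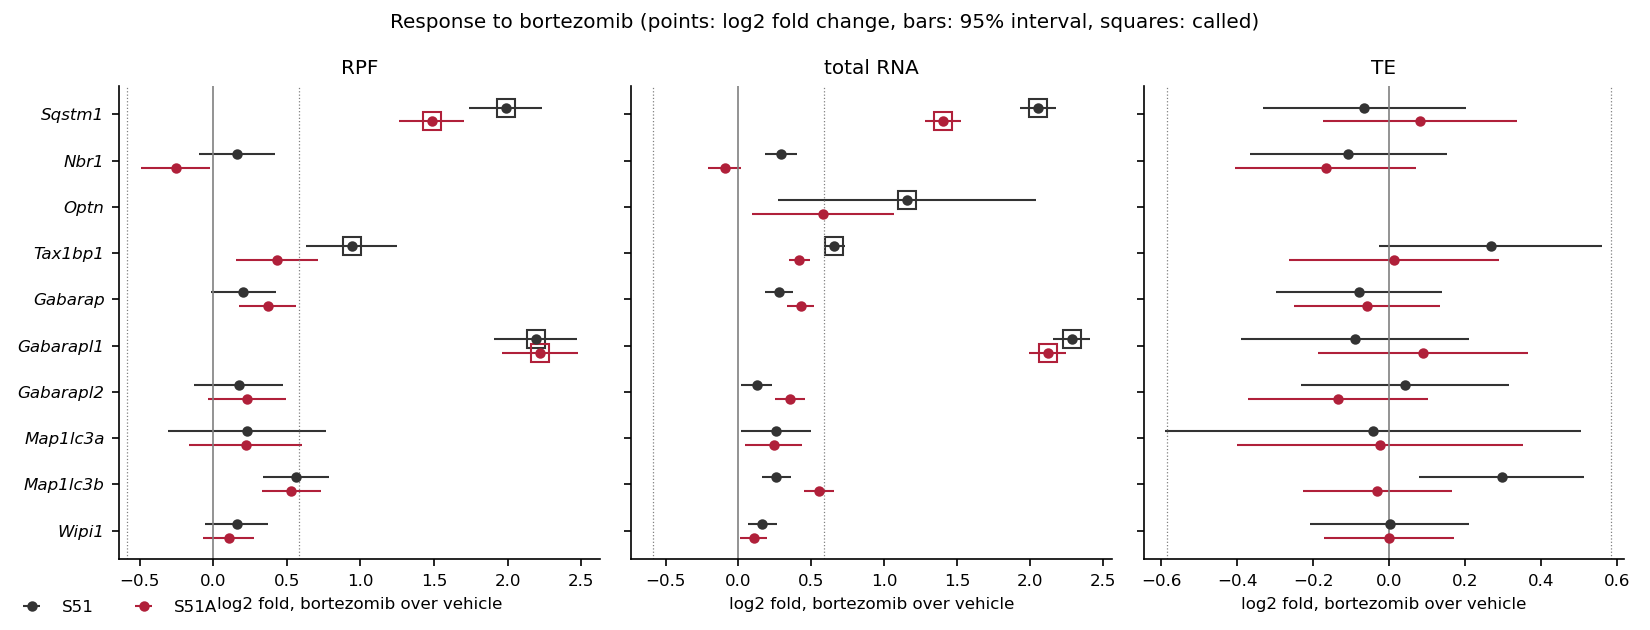
Log2 fold change under bortezomib (horizontal axis) for each gene, in RPF, total RNA and translational efficiency (TE), with 95% intervals, S51 in black and S51A in red; squares mark called changes and dotted lines the 1.5-fold limits. Sqstm1 and Gabarapl1 lie beyond log2 1.4 in both lines for RPF and total RNA, and the TE panel holds no squares.

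TE, the RPF change beyond the total RNA change, was tested in 1 model over 31 libraries. Each kind of library was scaled on its own, so RPF and TE changes are relative to other genes. They do not measure overall translation, and the paper reports lower protein synthesis under bortezomib. None of the 45 values (9 genes, 5 comparisons) was called by edgeR, nor by DESeq2 or limma voom, and 3 had an unadjusted p below 0.05. The log2 TE values ran from -0.18 to 0.40. In the S51 response, where 5.28% of genes tested were called either way, Sqstm1 gave -0.06 (95% interval -0.33 to 0.20) and Gabarapl1 -0.09 (-0.39 to 0.21). Map1lc3b gave the smallest adjusted p, at log2 0.30 (0.08 to 0.51, adjusted p = 0.0746). Over the alternative settings and left-out libraries, Map1lc3b gave log2 0.27 to 0.45 in S51, with adjusted p of 0.00313 to 0.2065. Tax1bp1 gave log2 0.04 to 0.47 there, with adjusted p of 0.0121 to 0.865. Some settings thus passed the adjusted p for these genes, always under the fold needed. In S51A, where 0.987% were called, the values were 0.08 (-0.17 to 0.34) for Sqstm1 and 0.09 (-0.19 to 0.37) for Gabarapl1. Of all genes tested, 0.0849% were called between the lines with vehicle, 3.08% with bortezomib and 1.29% in the response difference. Without TMM the split of TE calls over all genes in S51 turned from 98 higher and 400 lower to 389 higher and 244 lower, and the 9 genes kept a count of 0.

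**Figure D3:**
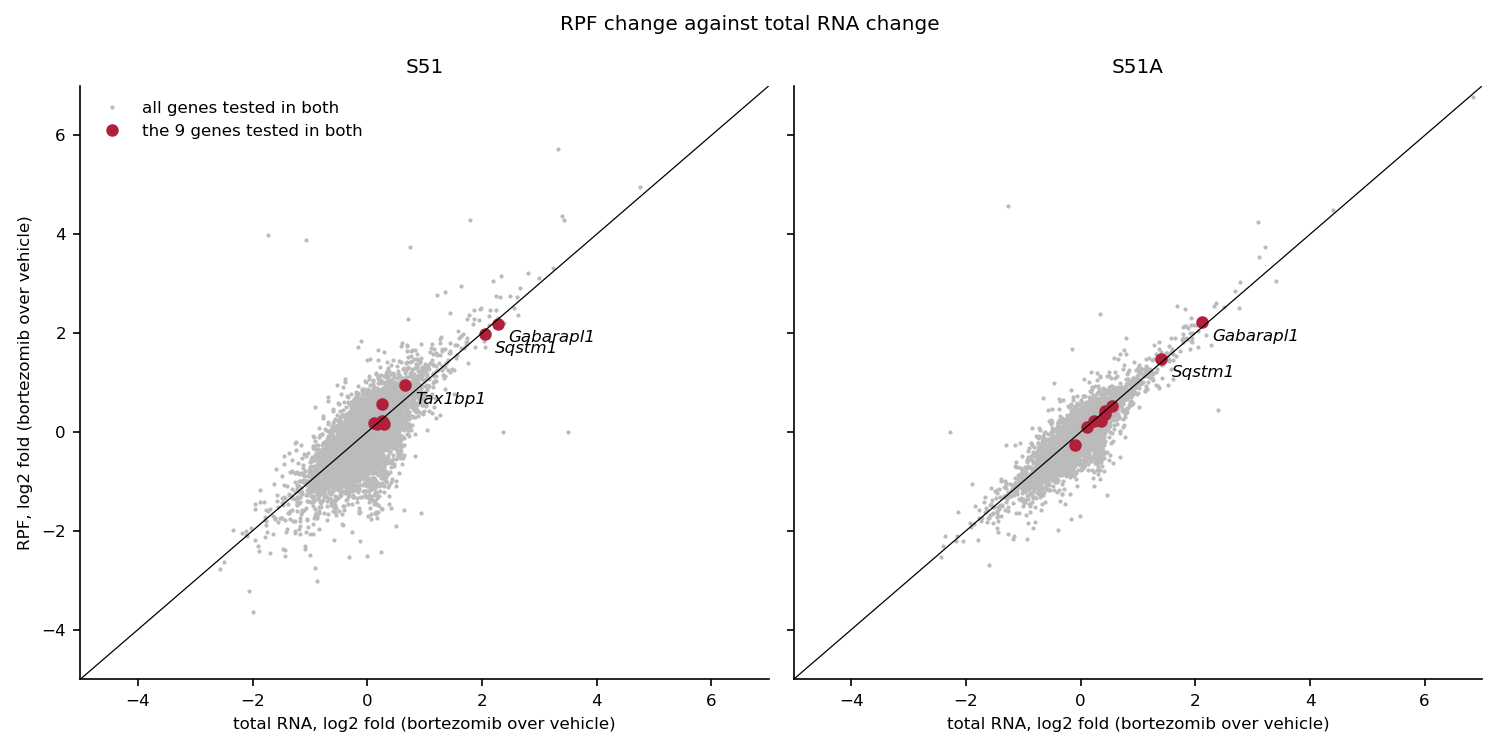
RPF log2 fold change (vertical axis) against total RNA log2 fold change (horizontal axis) under bortezomib, each grey point 1 of 9424 genes tested in both and red points the 9 genes described here, with the line of equal change. The red points lie within 0.30 of the line in S51 and within 0.16 in S51A.

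Whether the response differed between lines was tested as an interaction. For Sqstm1 in total RNA the response was larger in S51 by log2 0.65 ± 0.084, or 1.57-fold (adjusted p = 7.98e-06), the only call among the 10 genes, where 1.34% of all genes were called higher. In RPF the difference was log2 0.50 ± 0.15 (adjusted p = 0.0828), and none of the 9 genes was called by edgeR or DESeq2 (1.86% of all genes were, either way), 3 having an unadjusted p below 0.05. Without replicate 2 of S51 vehicle the Sqstm1 RPF difference was 0.66 (adjusted p = 0.000104), and without replicate 4 of S51A vehicle it was 0.60 (adjusted p = 0.0301). Without replicate 3 of S51 vehicle, Tax1bp1 was called in its place at 0.72 (adjusted p = 0.0247), beside 0.51 with all libraries. Without replicate 2 of S51 vehicle the Tax1bp1 difference was 0.27 (adjusted p = 0.175).

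Smaller differences in total RNA passed the adjusted p alone. The response was larger in S51 for Nbr1 (log2 0.39 ± 0.077, adjusted p = 0.000884) and Tax1bp1 (0.24 ± 0.050, adjusted p = 0.00132). It was smaller in S51 for Map1lc3b (-0.29 ± 0.069, adjusted p = 0.00351) and Gabarapl2 (-0.23 ± 0.070, adjusted p = 0.0204). All 4 were under 1.5-fold, and 21.6% of all genes tested passed the adjusted p alone. For Gabarapl1 the interval of the difference was -0.02 to 0.34 in total RNA and -0.41 to 0.35 in RPF.

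Between the lines, Map1lc3a and Wipi1 were lower in S51 with and without bortezomib. Map1lc3a in total RNA was read at 4.93, 3.57, 4.96 and 3.85 CPM in S51 vehicle and at 8.26, 9.41, 9.53 and 9.68 CPM in S51A vehicle. With bortezomib it was read at 4.99, 5.49, 5.15 and 5.01 CPM in S51 and 12.1, 11.2, 10.3 and 10.1 CPM in S51A. No library of one line reached the other. The difference was 2.14-fold with vehicle (log2 -1.09 ± 0.11, adjusted p = 2.75e-09) and 2.11-fold with bortezomib (log2 -1.08 ± 0.10, adjusted p = 1.89e-09). In RPF, with 6 to 85 counts a library, it was 1.87-fold (adjusted p = 0.00358) and 1.86-fold (adjusted p = 0.00377), and the vehicle value without replicate 2 of S51 vehicle was log2 -0.76 (adjusted p = 0.00855).

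Wipi1, which acts early in the formation of autophagosomes, gave RPF values of 55.3, 55.6 and 56.8 CPM in S51 vehicle and 95.3, 96.5, 98.4 and 91.3 CPM in S51A vehicle. It was 1.70-fold lower in S51 with vehicle (log2 -0.77 ± 0.096, adjusted p = 3.61e-06) and 1.64-fold lower with bortezomib (log2 -0.71 ± 0.093, adjusted p = 5.61e-06). In total RNA it was 1.56-fold lower with vehicle (adjusted p = 1.24e-11) and lower by log2 -0.59 ± 0.046 with bortezomib (adjusted p = 5.77e-11), the latter at the limit of the fold. RLE scaling, DESeq2 and no filter on low counts each put it just under that limit (log2 -0.58), and so did leaving out any of 5 total RNA libraries (replicates 1, 2 and 3 of S51A bortezomib and 1 and 2 of S51 bortezomib). Optn was 5.14-fold lower in S51 with vehicle (log2 -2.36 ± 0.35, adjusted p = 3.1e-06) and 3.44-fold lower with bortezomib (log2 -1.78 ± 0.28, adjusted p = 6.12e-06).

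In RPF 2 of the 9 genes were called lower in S51 in each condition, where 9.19% of all genes were with vehicle and 10% with bortezomib. In total RNA 3 of 10 were called lower in each, against 11.2% and 11.7%. Gabarap was lower in S51 too, by log2 -0.37 with vehicle and -0.52 with bortezomib in total RNA, under the fold needed. Sqstm1 in total RNA was lower in S51 with vehicle (log2 -0.35 ± 0.061, adjusted p = 2.17e-05) and higher with bortezomib (0.30 ± 0.058, adjusted p = 7.96e-05), both under the fold needed. In RPF its vehicle difference was log2 -0.09 ± 0.11 (adjusted p = 0.604). Without replicate 2 of S51 vehicle it was -0.24 (adjusted p = 0.0365), still under the fold needed.

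**Figure D4:**
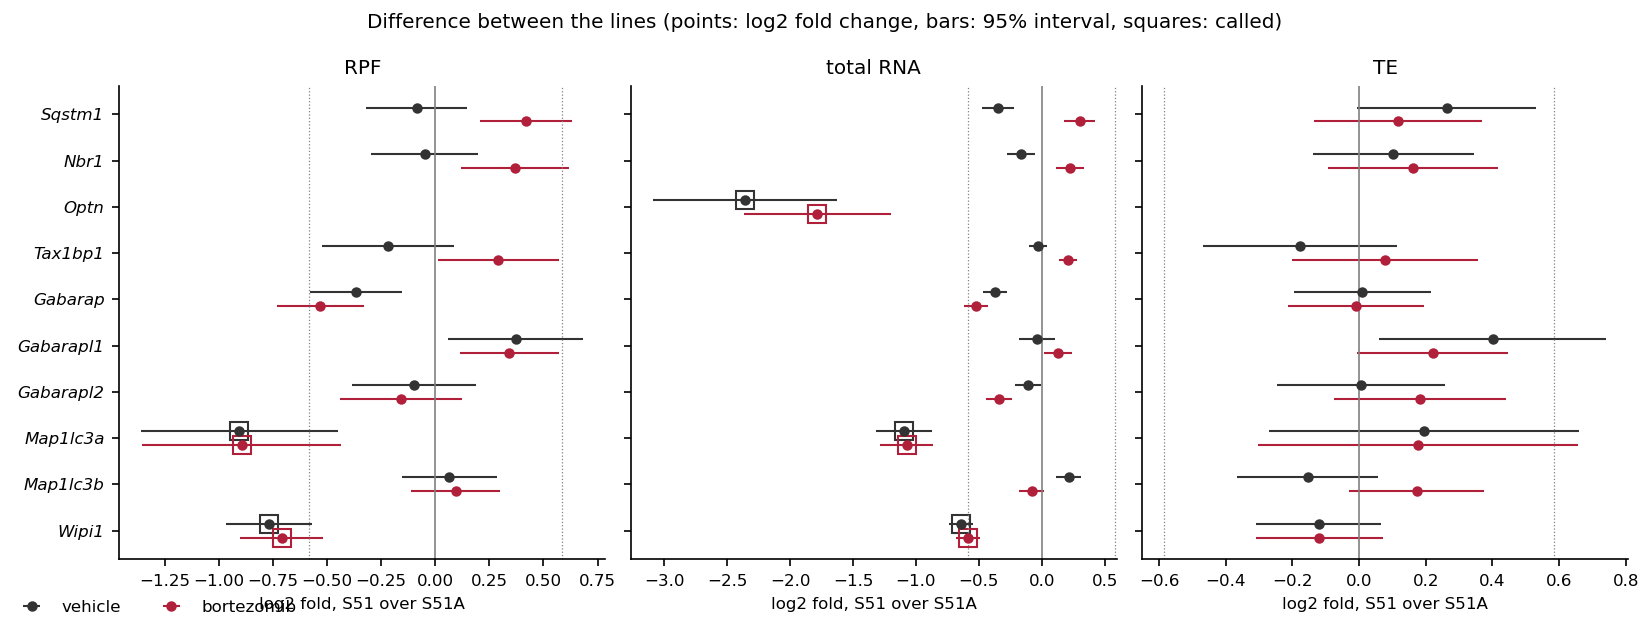
Log2 fold difference of S51 over S51A (horizontal axis) with vehicle (black) and bortezomib (red), with 95% intervals, for RPF, total RNA and TE; squares mark called differences and dotted lines the 1.5-fold limits. Map1lc3a and Wipi1 lie left of 0 in RPF and total RNA under both conditions, and Sqstm1 in total RNA crosses from left to right.

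Levels of different genes were compared as RPF CPM per kilobase of coding sequence, using the longest RefSeq coding length less the 60 bases at its ends that were left out of counting. With vehicle in S51 the highest density was that of Gabarap, 393 ± 20.1 (SD, n = 3), and that of Sqstm1 was 343 ± 64.5, and their libraries overlapped (380 to 416 and 302 to 418). The overlap came from replicate 2 of S51 vehicle, without which Gabarap lay at 382 to 416 and Sqstm1 at 302 to 310. In S51A vehicle the 2 genes stood apart as well, Gabarap at 466 to 537 and Sqstm1 at 290 to 409. Gabarapl2 had 168 ± 22.0 and Map1lc3b 128 ± 4.82, or 170 ± 6.41 with its shortest coding length, so their order turns on the transcript. Tax1bp1 (81.1 ± 27.8) and Gabarapl1 (68.5 ± 1.01) overlapped through the same replicate, and without it Tax1bp1 lay at 88.7 to 104 and Gabarapl1 at 68.7 to 69.4. In S51A vehicle they gave 95.3 ± 3.50 and 52.0 ± 5.63 (n = 4). Wipi1 (43.6 ± 0.611), Map1lc3a (28.4 ± 6.87) and Nbr1 (20.7 ± 2.21) came last among the genes tested in RPF, Optn being left out. With bortezomib Sqstm1 stood first at 1357 ± 84.2 in S51 and 1016 ± 48.3 in S51A (n = 4), and Gabarapl1 came after Gabarap in both lines at 314 ± 40.3 and 248 ± 19.0. In S51A bortezomib the libraries of Gabarapl1 (220 to 260) overlapped those of Gabarapl2 (195 to 230).

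**Figure D5:**
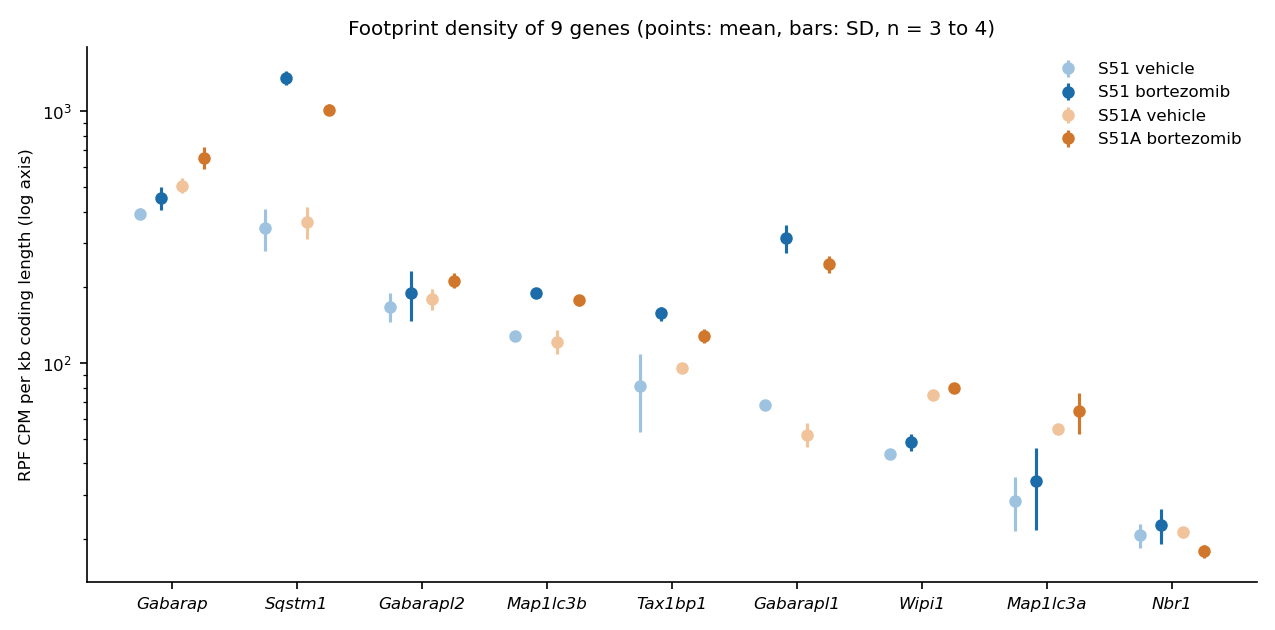
Footprint density (RPF CPM per kilobase of coding length, log axis) of 9 genes in the 4 groups, points at means and bars at SD over 3 or 4 libraries, ordered by S51 vehicle. Sqstm1 and Gabarapl1 are the genes whose bortezomib points stand well above both vehicle points, and Gabarap has the highest mean vehicle density in both lines.

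Of 55 further genes in 6 lists (other receptors, the ULK initiation complex, the PI3 kinase complex, lipid transfer and PI3P effectors, ATG8 conjugation, and fusion), 54 were tested in total RNA, and 4 rose in S51 and 1 in S51A, where 5.7% and 4.54% of all genes did. In RPF, 1 of 50 rose in each line, against 7.38% and 4.19% of all genes. The 4 were Ulk1, the kinase that starts autophagy (log2 0.81 ± 0.068, adjusted p = 2.79e-10), Atg14, a subunit of the PI3 kinase complex (0.84 ± 0.11, adjusted p = 5.15e-07), Atg12, a ubiquitin-like protein of the conjugation machinery (0.61 ± 0.044, adjusted p = 1.55e-11), and Stbd1, a glycogen-binding receptor (0.62 ± 0.19, adjusted p = 0.00747). In S51A the gene was Atg14 (0.94 ± 0.11, adjusted p = 1.41e-07). The medians of these lists together in total RNA were 0.06 in S51 and 0.08 in S51A.

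Of 12 lysosome genes, 3 rose and 1 fell in RPF in S51, and 1 rose in S51A, where 7.38% and 4.19% of all genes rose. Of all 9457 genes tested, 1059 fell in RPF in S51. Atp6v1h, a proton pump subunit, rose by log2 1.00 ± 0.16 in S51 RPF (adjusted p = 7.79e-05), the protease gene Ctsd by 0.88 ± 0.076 (adjusted p = 1.33e-08) and the membrane protein gene Lamp2 by 0.69 ± 0.15 (adjusted p = 0.0013). The sialidase gene Neu1 fell by 1.06 ± 0.36 (adjusted p = 0.03). Ctsd was the one that rose in S51A in RPF (0.67 ± 0.069, adjusted p = 2.4e-07). In total RNA 2 rose and 1 fell in each line, where 5.7% and 4.54% of all genes rose. Of all 11708 genes tested in total RNA, 1123 fell in S51 and 1003 in S51A. The lysosome genes called were Atp6v1h (log2 0.72 ± 0.049 in S51 and 0.63 ± 0.050 in S51A), Ctsd (0.66 ± 0.043 and 0.65 ± 0.043) and, lower, Neu1 (-0.71 ± 0.11 and -0.64 ± 0.094).

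Of the aggresome partners, 4 of the 8 tested rose in RPF in each line, with medians of 0.51 in S51 and 0.50 in S51A over the 8, and 7.38% and 4.19% of all genes rose. These were Bag3, a co-chaperone of selective autophagy (log2 1.73 ± 0.18 in S51 and 2.01 ± 0.16 in S51A), Dync1h1, the dynein heavy chain (1.40 ± 0.15 and 0.63 ± 0.13), Vcp, a segregase (1.06 ± 0.094 and 0.72 ± 0.085) and Ubqln1, a ubiquitin shuttle (0.72 ± 0.088 and 0.64 ± 0.080). The response of Dync1h1 was larger in S51 in RPF by 0.78 ± 0.20 (adjusted p = 0.0377).

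Among 9 tested regulators of autophagy genes, 4 rose in RPF in S51 and 0 in S51A, where 7.38% and 4.19% of all genes did. In total RNA 3 of 10 rose in S51 and 0 in S51A, against 5.7% and 4.54% of all genes. Atf4, an effector of the ISR, rose by log2 1.46 ± 0.12 in RPF in S51 (adjusted p = 3.25e-09) and by 1.46 ± 0.11 in TE (adjusted p = 2.75e-12), with an RPF change of 0.06 ± 0.11 in S51A (adjusted p = 0.778). The difference was 1.40 ± 0.16 (adjusted p = 4.15e-05). Ddit3 rose by 2.94 ± 0.32 in RPF in S51 (adjusted p = 4.77e-07), beside 0.52 ± 0.35 in S51A (adjusted p = 0.322). Ddit3 and Tbk1 were named because they were called in the S51 response, a choice that favours smaller values in S51A. Tbk1, a kinase of autophagy receptors, rose by 0.98 ± 0.14 in S51 (adjusted p = 1.22e-05), beside 0.36 ± 0.12 in S51A (adjusted p = 0.0345), the difference of 0.62 ± 0.18 not being called (adjusted p = 0.0706). Nfe2l2, which encodes the antioxidant factor NRF2, rose in RPF by 0.83 ± 0.11 (adjusted p = 7.23e-06) and in TE by 0.60 ± 0.11 (adjusted p = 0.000189) in S51, and gave 0.28 ± 0.10 in RPF in S51A (adjusted p = 0.0534), the difference not being called (adjusted p = 0.0566). Keap1, its repressor, gave 0.51 ± 0.12 and 0.45 ± 0.11 in RPF. Tfe3 gave 0.58 ± 0.14 in S51 RPF (adjusted p = 0.00309), under the fold needed, and Tfeb 0.27 ± 0.44 (adjusted p = 0.68).

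The genes whose levels followed Sqstm1 most closely were found by Pearson's r of log2 CPM, as a description. Over 16 total RNA libraries they were Lin54, Gpi1, Oser1, Psmd1 and Zfp385a, with r from 0.987 to 0.990. Over 15 RPF libraries they were Psmc5, Cdkn1a, Hmox1, Btg2 and Hspa1b, with r from 0.979 to 0.985. Psmd1 and Psmc5 encode proteasome subunits, and Hspa1b has a near-identical copy, so its counts are uncertain. Since the libraries share 4 groups, any gene that separates them in the same order has a high r. Among the genes described here Gabarapl1 came nearest (r = 0.986 in total RNA and 0.965 in RPF), then Tax1bp1 in total RNA (0.970) and Map1lc3b in RPF (0.938), while Nbr1 gave 0.471 and -0.06.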

How the data were processed

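The authors deposited raw read counts per gene (Entrez identifier), 1 table for RPF and 1 for total RNA. Per the methods, FastX trimming was followed by bowtie2 alignment to mm10 and counting, for RPF inside coding sequences without their ends; the submitters' processing notes also name featureCounts and DESeq2. Columns of S51 bortezomib and S51A vehicle were assigned from the correction to the series, under which their titles were exchanged. Counts were fitted in R 4.3.3 with edgeR 4.0.16 (TMM, filterByExpr with a minimum of 10, glmQLFit with 1 coefficient per group, glmQLFTest, Benjamini-Hochberg over all genes: 9457 in RPF, 11708 in total RNA, 9424 in TE). TE was the interaction of group and kind of library. Scripts were tested on simulated data. Alternatives used RLE, no scaling, no filter, DESeq2 1.42.0, limma 3.58.1, replicate blocks and left-out libraries. Members and lists were chosen with earlier results of these data known. Genes beyond the members were named by size among those called in the S51 response, at most 4 a list, and the regulators Atf4, Nfe2l2, Keap1, Tfe3 and Tfeb whatever their change. Replicates are separate libraries whose cultures the labels do not describe, so p-values measure the spread between libraries.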

Additional observations from a re-analysis of the deposited data

Results flagged for a closer look

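In 4 of 67 groups of 4 libraries, 1 library stood apart from the other 3 by Dixon's test, which chance gives in about 1 group in 20. All were in total RNA. Nbr1 in S51A vehicle had a highest library of 89.1 CPM, beside 79.6 to 80.8 in the others. Tax1bp1 had a highest library of 500.0 CPM in S51 bortezomib, beside 445 to 451, and of 411 CPM in S51A bortezomib, beside 394 to 396. Wipi1 in S51A bortezomib had a lowest library of 110.0 CPM, beside 119.6 to 120.2.

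The response to bortezomib in total RNA differed between S51 and S51A for 5 genes by the adjusted p of edgeR's interaction test alone, as it did for 2526 of all 11708 genes tested (21.6%), and of the 5 Sqstm1 alone was above 1.5-fold. The log2 difference, S51 minus S51A, was 0.65 for Sqstm1 (adjusted p = 7.98e-06), 0.39 for Nbr1 (adjusted p = 0.000884), 0.24 for Tax1bp1 (adjusted p = 0.00132), -0.23 for Gabarapl2 (adjusted p = 0.0204) and -0.29 for Map1lc3b (adjusted p = 0.00351).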

How the results depend on the processing

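No called value of a member changed sign. Over 1131 values of single genes under alternatives, 1087 kept their side of the threshold, 8 lost and 36 gained a call, and over 1722 with 1 library left out, 9 lost and 9 gained one. With adjusted p alone and no fold threshold, the members called went to 5 in RPF in the S51A response, 6 in RPF between lines under bortezomib, 9 in total RNA in the S51 and in the S51A response, 7 and 9 in total RNA between lines under vehicle and bortezomib, and 5 in the total RNA response difference, because the fold criterion was dropped. With a minimum of 10 counts in all RPF libraries, Map1lc3a was not tested and the count between lines was 1 under each condition. With a fold above 2, the total RNA response difference had 0. Leaving out 1 library moved the RPF response difference between 0 and 1 and the total RNA S51A response between 2 and 4, the 4 without S51A bortezomib replicate 1. Wipi1 in total RNA under bortezomib lost its call with RLE (log2 -0.58), DESeq2 (-0.58), no filter (-0.58) and 5 left-out libraries. The replicate block gave the same counts of called members in all 15 comparisons, for example 3 in RPF in the S51 response. The numbers were not taken to pair the libraries, since not every same-numbered pair deviated together with a correlation over 0.1 (3 of 21 in RPF and 8 of 24 in total RNA), although in total RNA all 24 lay above 0 (median 0.0922), beside a median of -0.0344 and 0 of 72 over 0.1 for pairs of different numbers. Per the paper, RPF and total RNA came from the same lysates, which the main TE model did not pair. With libraries of equal group and number taken as 1 lysate, no TE value of these genes was called either. RPF depth limits Optn and Map1lc3a.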
